A study of Gossypium hirsutum with 6 samples.

Results

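H3K4me3 deserts are long stretches of chromosome without a peak of H3K4me3, and 777 of them were found among 72981 gaps between neighbouring peaks on the 26 chromosomes of line TM-1 of upland cotton (Gossypium hirsutum). They were chosen by measured values: 2 deposited lists of narrow peaks were merged, and every gap of at least 300 kb between neighbouring merged peaks was taken. The number, length and place of the deserts therefore follow from the rule and are given as a description without a test. The tests below concern the peaks of H3K27me3 replicate 1, a list that the rule did not use. By its label, 1 of the 2 lists that the rule did use is of H3K27me3 (below), so the first test is also given for deserts built without it.

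Leaves of plants 20 days old were digested with micrococcal nuclease and used for chromatin immunoprecipitation followed by sequencing. All samples were the same untreated line and tissue, and by their labels they differed in antibody and replicate number. The 6 samples comprised 2 libraries each for H3K4me3, for H3K27me3 and for input without antibody. The 4 libraries with antibody each gave 1 list of peaks, and the lists hold positions without heights or read numbers, so the depth of a library is unknown from them. The supplement of the study does list mapped and uniquely mapped reads for each library, and these were not used here. Whether the 2 libraries of a mark came from separate plants is not given in the labels.

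The labels of the second libraries go against the names under which their lists were deposited. Both replicate 1 lists carry the same mark in label and name: H3K4me3 replicate 1 is a narrow list of 76736 peaks (median width 495 bp), and H3K27me3 replicate 1 is a broad list of 23427 peaks (median width 1379 bp). The list labelled H3K27me3 replicate 2 was deposited under a name with H3K4me3 and held 46758 peaks of a median width of 474 bp. The list labelled H3K4me3 replicate 2 was deposited under a name with H3K27me3 and held 27586 peaks of a median width of 1230.5 bp. In width, each thus lay close to the replicate 1 list of the mark in its deposited name. Positions gave the same picture. Of the merged narrow peaks, 17639 on A and 18123 on D were in both narrow lists. Only 2265 and 2095 were in the list labelled H3K27me3 replicate 2 alone. Outside deserts, 89.0% (A) and 89.4% (D) of H3K27me3 replicate 1 peaks off narrow peaks overlapped the list labelled H3K4me3 replicate 2. Deserts were built from the 2 narrow lists, that is, by deposited name. The measure of H3K27me3 was the replicate 1 list, whose mark is not in doubt, and the list labelled H3K4me3 replicate 2 is given beside it as the other broad list.

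Little of the desert map rests on the list in doubt. H3K4me3 replicate 1 alone gave 671 gaps of at least 300 kb on the A subgenome (375.8 Mb) and 116 on the D subgenome (49.2 Mb). Of these, 658 and 114 contained the midpoint of a final desert. Lists chosen by label, which pairs H3K4me3 replicate 1 with the other broad list, gave 642 deserts on A (356.8 Mb) and 100 on D (41.3 Mb). The list labelled H3K27me3 replicate 2, used alone, gave 733 gaps on A (478.4 Mb) and 288 on D (128.7 Mb), so the D map in particular depended on H3K4me3 replicate 1.

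H3K4me3, trimethylated lysine 4 of histone H3, usually marks the start of transcribed genes. H3K27me3 is set by Polycomb repressive complex 2 and in plants usually covers silenced genes, among them many regulators of development. Stretches rich in transposons and poor in genes, such as those around centromeres, usually carry neither mark and are packed by DNA methylation and H3K9 methylation instead. Upland cotton is an allotetraploid whose A subgenome is larger and richer in retrotransposons than its D subgenome. The study asked how both marks relate to gene activity in the 2 subgenomes.

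Deserts took up far more of the A than of the D subgenome. On A, 663 deserts summed to 368.4 Mb, or 31.8% of a span of 1160 Mb, where the span is the distance between the outermost peaks of each chromosome over the 4 lists. On D, 114 deserts summed to 48.2 Mb, or 6.22% of 774.1 Mb. The A deserts were 5.82 times as many and 7.65 times as long in sum. By number they were rare among gaps, at 1.87% of the 35472 gaps of A and 0.304% of the 37509 gaps of D. The median of all gaps hardly differed, at 7.46 kb on A and 7.36 kb on D, but the subgenomes parted below the limit too. Gaps of 100 to 300 kb numbered 1836 on A and 1209 on D. Shorter ones were more frequent on D, with 4911 on A and 5303 on D at 30 to 100 kb, and 7776 and 9058 at 10 to 30 kb.

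A deserts were also longer one by one. The median length was 472.6 kb on A (quartiles 364.5 and 647.5 kb) and 382.8 kb on D (334.6 and 458.6 kb). At least 500 kb was reached by 298 A deserts (44.9%) and 21 D deserts (18.4%). The 46 deserts of at least 1 Mb were all on A and held 60.0 Mb. Close to the limit of 300 kb the rule is arbitrary: the 3 longest gaps left out measured 299374 bp on D02, 299403 bp on D11 and 299686 bp on A08. The 3 shortest taken measured 300180 bp on A11, 300186 bp on D11 and 300296 bp on A07.

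The longest deserts lay in the inner parts of chromosomes. The longest of all covered 2230 kb of A06, from 52199325 to 54428909 (positions counted from 1 in the TM-1 assembly that the authors aligned to), and A06 held another of 1977 kb from 71054482 to 73031841. A09 had a desert of 2196 kb from 17405276 to 19601043, A03 one of 1969 kb from 34317109 to 36285730, and A10 one of 1762 kb from 33582541 to 35344854. H3K27me3 peaks were few in these 5 deserts. The A03 and A10 deserts were touched by no peak of either broad list, and that of A03 was the longest such stretch. The first A06 desert held 2 H3K27me3 replicate 1 peaks, the A09 desert 1, and the second A06 desert had 1 peak that only reached in over a border. The order depended on the list in doubt. In H3K4me3 replicate 1 alone, the longest gap on A measured 2508 kb. This is the length of a stretch of A03 from 33778147 to 36285730, which the merged lists split into 2 deserts, the second being that of 1969 kb.

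The longest D deserts were less than a megabase. D09 held 940.4 kb from 19046611 to 19986980, D10 held 938.2 kb from 37989490 to 38927660, and D04 held 928.8 kb from 18548660 to 19477500. The next were 805.5 kb of D09 from 16012313 to 16817824 and 761.6 kb of D03 from 22867217 to 23628842. Among them the D04 desert was the longest on D without any peak of either broad list, and the D10 desert held most, with 2 H3K27me3 replicate 1 peaks.

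Every A chromosome exceeded every D chromosome in desert share. Shares on A ran from 19.5% of the span of A05 to 40.5% of A06, with a mean of 31.4% ± 6.51 (SD, n = 13 chromosomes). Shares on D ran from 3.51% of D04 to 13.4% of D03, with a mean of 6.39% ± 2.83 (SD, n = 13). In number, A chromosomes held 33 (A07) to 75 (A06) deserts and D chromosomes 3 (D04) to 16 (D01). The ranges did not overlap in desert Mb either, at 17.1 to 41.8 Mb on A and 1.80 to 6.25 Mb on D. Chromosomes with longer spans held more desert on A (Pearson's r = 0.77 over 13 chromosomes) and not on D (r = -0.35). Desert is part of the span, so these 2 values are a description only.

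**Figure D1:**
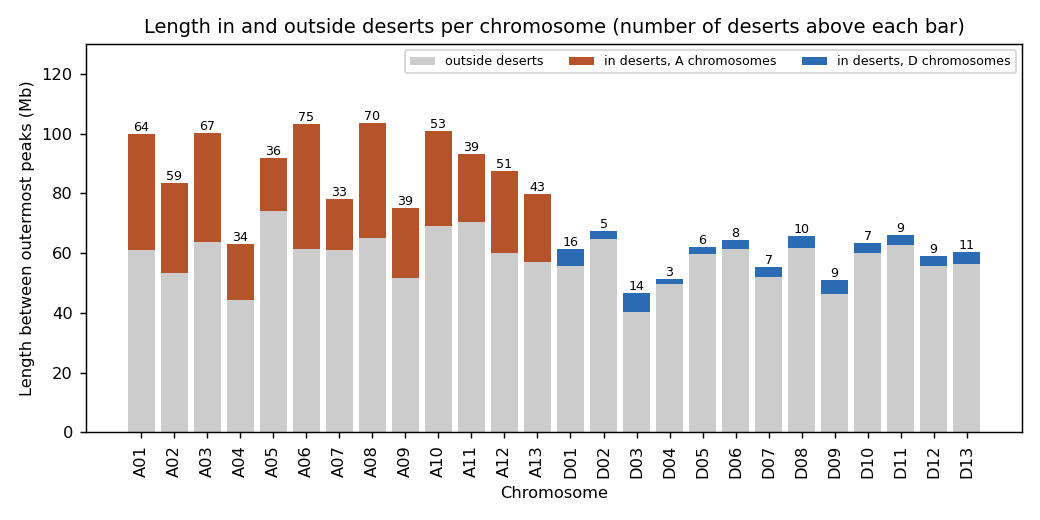
Span of each of the 26 chromosomes in Mb as stacked bars, split into length outside deserts (grey) and in deserts (red on A, blue on D), with the number of deserts above each bar. Desert length is 17.1 to 41.8 Mb on the A chromosomes and 1.80 to 6.25 Mb on the D chromosomes.

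When each A chromosome was paired with the D chromosome of its number, A carried 5.00 times (pair 9) to 13.7 times (pair 6) as many Mb of desert as D, with a mean of 8.17 ± 2.80 (SD, n = 13 pairs). Chromosomes are not biological replicates, so such spreads describe variation along the genome of 1 line and not between plants. In cotton, the A02 and A03 and the A04 and A05 chromosomes are known to have exchanged arms, so that pairs 2 to 5 do not match along their whole length.

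Deserts made up most of the difference in length between the subgenomes. The spans of A exceeded those of D by 385.9 Mb, and the deserts of A exceeded those of D by 320.3 Mb, which is 83.0% of it. Outside deserts A measured 791.5 Mb and D 725.9 Mb. The share depended on the limit of 300 kb. With gaps of at least 500 kb removed, 930.9 Mb of A and 760.4 Mb of D remained, and from 200 kb 676.8 and 673.2 Mb. By pair, the difference in desert length came to between 51.8% (pair 5) and 172.3% (pair 2) of the difference in span. In pairs 2 and 4 the D chromosome was the longer of the pair once deserts were removed, with A minus D at -11.7 and -5.44 Mb.

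Along chromosomes, deserts were gathered in the middle and nearly absent at the ends. On A, 517 deserts (78.0%) had their midpoint between 25% and 75% of the span, and on D 103 (90.4%) did. The median distance of a desert from the nearer end was 35.4% of the span on A and 39.2% on D. In 5% steps, deserts covered a mean of 61.1% of A chromosomes at the step centred on 52.5% of the span, and 60.4% at 37.5%. D chromosomes were covered to at most 18.9%, at 37.5%. The outer 10% of the span on either side held 8 A deserts (1.21%) and 3 D deserts (2.63%).

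From the end of a chromosome to its first desert lay a median of 11.1 Mb on A (3.66 to 28.4 Mb, 26 ends) and 18.5 Mb on D (1.13 to 37.8 Mb, 26 ends). The end with a desert 1.13 Mb away was that of D03, whose desert is described below. No position of a centromere was used, so distances refer to ends only.

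**Figure D2:**
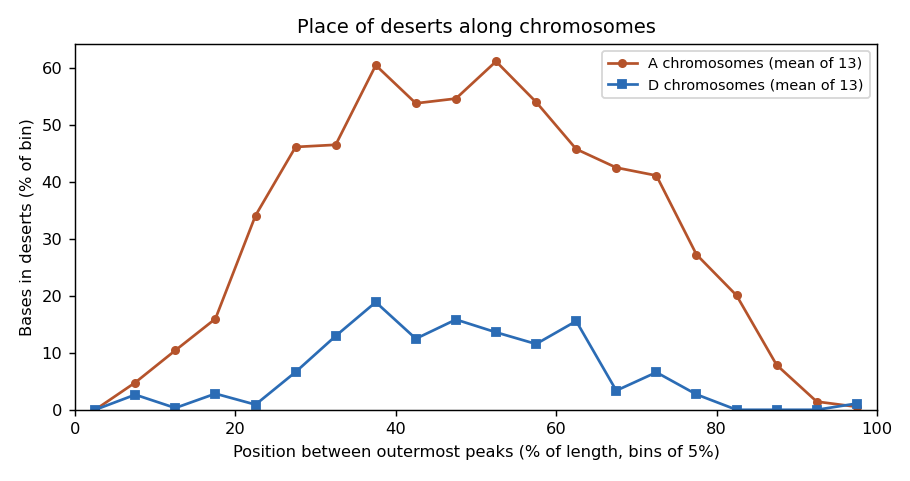
Mean share of each 5% step of the chromosome span lying in deserts (%), against position along the span (%), over 13 A (red) and 13 D (blue) chromosomes. Both curves are near 0 at the ends and high in the middle, up to 61.1% on A and 18.9% on D.

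Single peaks parted some deserts from one another. A run was counted where neighbouring deserts were separated by 1 merged narrow peak each. On A, 171 deserts (25.8%) lay in runs of 2 or more, and on D 21 (18.4%) did. The run with most deserts was on A02, where 5 deserts of 308.6 to 784.5 kb followed each other from 48465300 to 51365463, so that 2900 kb held 4 narrow peaks. The longest run in bp was 3293 kb of A09, from 16308535 to 19601043, and consisted of 2 deserts around 1 peak. On D the run with most deserts was on D01, from 29233715 to 30252494 (3 deserts, 1019 kb), and the longest was 1469 kb of D09 (2 deserts), from 19046611 to 20515392.

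On A, the peaks within such runs were found in both narrow lists at a share of the same order as peaks elsewhere. Of the 97 merged peaks that lay between 2 deserts on A, 52 (53.6%) were made from both narrow lists, and 17639 of all 35485 merged peaks of A (49.7%) were. Their median width was 759 bp, against 548 bp over all merged peaks of A. On D only 11 peaks lay between 2 deserts, of which 8 (72.7%) were in both lists, against 48.3% of all merged peaks of D. H3K27me3 replicate 1 overlapped 19 of the 97 A peaks (19.6%) and 12.5% of all merged peaks of A, and 1 of the 11 D peaks (9.09%) against 14.4% of all merged peaks of D. These peaks set the borders of deserts and so belong to the rule, and their shares carry no test.

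H3K27me3 peaks were sparse in deserts on both subgenomes. By midpoint, 282 H3K27me3 replicate 1 peaks lay in A deserts, which is 3.01% of the 9381 peaks of A in 31.8% of its span. D deserts held 92 peaks, or 0.809% of 11368. This made 0.765 peaks per Mb in A deserts against 11.5 outside them, and 1.91 against 15.5 on D. The density outside was 15.0 times that inside on A and 8.13 times on D. By covered bases, deserts were under H3K27me3 for 0.150% of their length on A and 0.398% on D.

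The lower density held on every chromosome. Over 13 A chromosomes the mean was 0.801 peaks per Mb in deserts and 11.4 outside, a difference of -10.6 ± 2.29 (SD) that was negative on 13 of 13. Over 13 D chromosomes it was 1.71 in deserts and 15.4 outside, a difference of -13.7 ± 4.32 (SD), negative on 13 of 13. The exact permutation test (two-sided, flipping the sign of each chromosome) gave p = 0.000244 for each, the smallest that 13 chromosomes allow, with an adjusted p of 0.000610 over 10 tests (Benjamini-Hochberg). Deserts of H3K4me3 replicate 1 alone, which use no list labelled H3K27me3, gave differences of -10.6 on A and -13.7 on D with the same adjusted p. The other broad list gave the same order, at 0.858 against 13.5 per Mb on A and 2.26 against 18.4 on D. Peaks of both marks often lie at the same places, and H3K27me3 peaks that overlapped no narrow peak were lower in deserts too, at 0.642 against 7.01 per Mb on A and 1.54 against 9.60 on D (means over 13 chromosomes each).

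Most deserts held no H3K27me3 peak at all. At least 1 midpoint of H3K27me3 replicate 1 fell in 177 of 663 A deserts (26.7%) and in 41 of 114 D deserts (36.0%), together 218 of 777 (28.1%). Over all gaps of any length the share was 16.0%, and among gaps of 100 to 300 kb it was 30.0% on A and 35.9% on D. Deserts thus held such a peak about as often as gaps of 100 to 300 kb, although they are longer. On A, 110 deserts held 1 peak, 37 held 2, 22 held 3 and 8 held 4. The other broad list placed a midpoint in 189 A deserts (28.5%) and 43 D deserts (37.7%), and both lists did so in 160 and 38. Neither broad list touched 408 A deserts (61.5%, 219.2 Mb) and 63 D deserts (55.3%, 25.7 Mb).

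Density fell with the length of the gap. On A, H3K27me3 replicate 1 had 25.2 peaks per Mb in gaps under 10 kb, 19.4 in gaps of 10 to 30 kb, 9.62 at 30 to 100 kb and 3.08 at 100 to 300 kb. In deserts it had 1.04 at 300 to 500 kb, 0.657 at 500 to 1000 kb and 0.433 above. On D the same steps gave 27.3, 21.3, 12.0 and 5.36 peaks per Mb, and then 1.91 and 1.90 in deserts below and above 500 kb. The limit of 300 kb is thus a point on a gradient on A, not a step. The share of deserts with a peak was 24.1%, 29.4% and 32.6% in the 3 length classes of A.

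**Figure D3:**
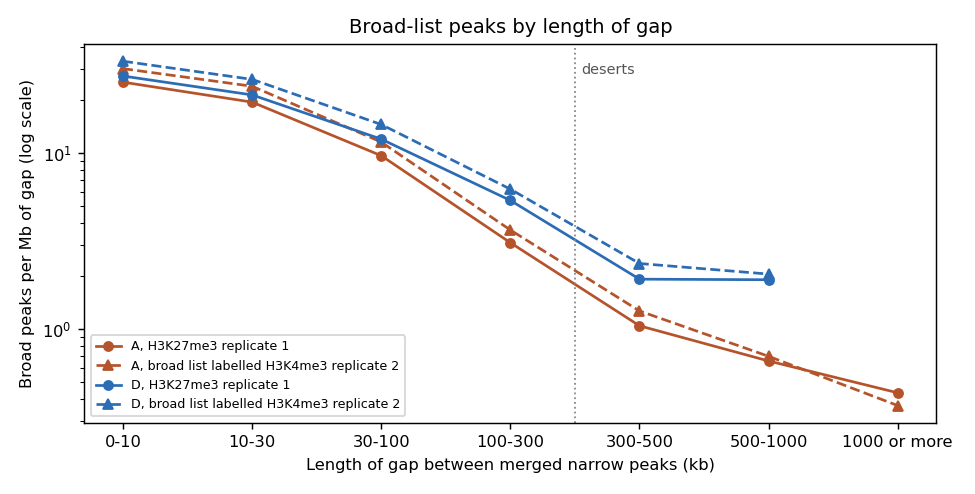
Peaks per Mb of gap (log axis) against the length class of the gap between merged narrow peaks (kb), for A (red) and D (blue), with H3K27me3 replicate 1 as solid lines and the other broad list as dashed lines; deserts are the classes right of the dotted line. For replicate 1, density falls from 25.2 to 0.433 peaks per Mb on A and from 27.3 to 1.90 on D.

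D deserts held more H3K27me3 peaks per Mb than A deserts, but this rested on few peaks. By pair, the D chromosome exceeded the A chromosome by 0.913 ± 1.13 peaks per Mb (SD, n = 13 pairs), with means of 1.71 and 0.801, and was higher in 11 of 13. The exact sign-flip permutation test gave p = 0.0166 and an adjusted p of 0.0277. D04 and D05 held no such peak, and the highest value was 3.59 per Mb on D10. Without pair 1, 2, 3, 6, 9 or 10 the adjusted p passed 0.05 (0.0505 to 0.0553, values of 0.772 to 0.867). Deserts by label gave a difference of 0.0646 with an adjusted p of 0.718 by the exact permutation test, at means of 0.172 on D and 0.108 on A. By label, desert borders were set in part by the other broad list. It overlapped 80.7% (A) and 80.5% (D) of the H3K27me3 replicate 1 peaks off narrow peaks in the main deserts. Few such peaks could thus lie in deserts by label, and this setting cannot decide the difference between D and A.

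A few D deserts carried much of that number. Chosen after their values were seen, the 5 D deserts with at least 5 H3K27me3 replicate 1 peaks held 38 of the 92 peaks (41.3%) in 3.95% of the D desert length, and they held 37 peaks of the other broad list. They lay on D01 (7 peaks in 340.1 kb, from 39672831 to 40012909), D06 (5 peaks, 36054012 to 36369923), D09 (9 peaks in 551.0 kb, 4387731 to 4938749), D10 (6 peaks, 49146802 to 49509736) and D03. No A desert held more than 4, a number reached by 8 deserts, 3 of them on A07.

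The D03 desert held most of all, 11 H3K27me3 replicate 1 peaks in 334.2 kb from 45225571 to 45559740. It lay at 97.2% of the span, close to the chromosome end, unlike most deserts. H3K27me3 covered 11.7% of it by replicate 1 and 12.0% by the other broad list. The 11 peaks were 310 to 10145 bp wide with a median of 2622 bp, and 10 of them were found again in the other broad list. The widest, from 45351625 to 45361769, was also the widest H3K27me3 peak within any D desert, and 99.0% of it was covered by the other list. On A the widest such peak measured 7328 bp, on A09 from 21431434 to 21438761, within a desert of 768.4 kb and 105.1 kb away from its border. Without the D03 desert, D deserts held 1.69 peaks per Mb, and the difference between D and A was 0.781 with an adjusted p of 0.0521 by the exact permutation test.

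The peaks in deserts crowded at the borders. Within 5 kb of a border H3K27me3 replicate 1 had 18.6 peaks per Mb on A and 21.9 on D. At 5 to 10 kb it had 3.47 and 7.89, and beyond 50 kb it ranged between 0.295 and 0.362 on A and between 1.05 and 1.40 on D. The outermost 10 kb on both sides held 146 of the 282 peaks of A deserts (51.8%) in 3.60% of their length, and 34 of the 92 peaks of D deserts (37.0%) in 4.73%. Part of this were peaks that also overlapped the narrow peak at the border, 59 on A and 10 on D. Leaving those out, the first 5 kb still had 9.65 peaks per Mb on A and 13.2 on D.

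Over chromosomes, the outer 50 kb on each side had 2.90 peaks per Mb and the interior 0.337 on A, a difference of 2.56 ± 0.634 (SD, n = 13), positive on 13 of 13 (exact sign-flip permutation p = 0.000244, adjusted p = 0.000610). On D the outer part had 3.86 and the interior 1.06, a difference of 2.80 ± 2.09 (SD, n = 13), positive on 11 of 13 and 0 on the other two (exact p = 0.000977, adjusted p = 0.00195). Both tests counted the peaks on the narrow border peak, 59 of 187 outer peaks on A and 10 of 48 on D. By the rule such peaks could lie in the outer part only. Without them, direction and call were kept on A and D. The D value moved with the desert map: deserts by label gave 0.714 with an adjusted p of 0.100, and deserts of the list labelled H3K27me3 replicate 2 alone gave 0.875 with an adjusted p of 0.312, both by the exact permutation test. Deserts by label were bounded by the other broad list, so few H3K27me3 peaks could lie inside them, and their value cannot decide this.

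**Figure D4:**
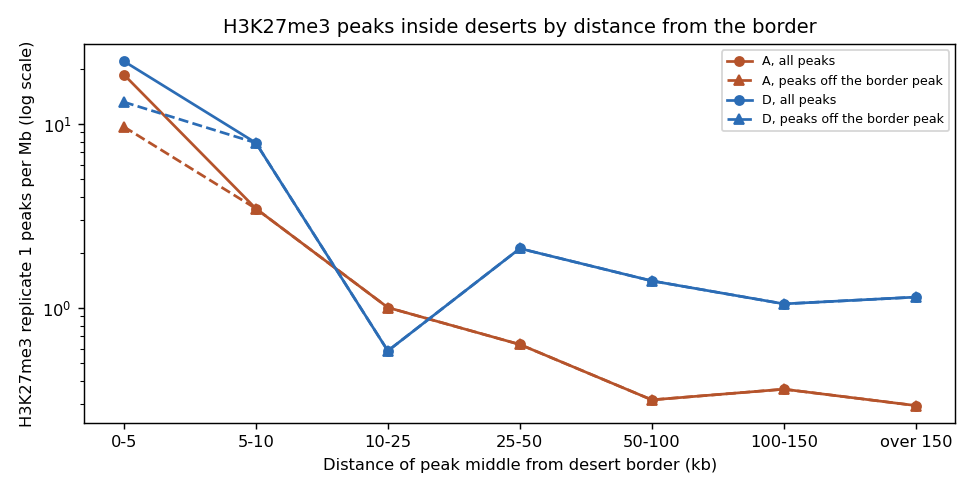
H3K27me3 replicate 1 peaks per Mb of desert (log axis) against distance from the nearer border (kb), for A (red) and D (blue), with all peaks as solid lines and those off the narrow border peak as dashed lines. Density is 18.6 (A) and 21.9 (D) in the first 5 kb and 0.295 (A) and 1.15 (D) beyond 150 kb, and the low D value at 10 to 25 kb rests on 2 peaks.

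Deserts and shorter gaps were also compared at a matched distance from their borders. At 10 to 100 kb from the nearest border, leaving out peaks on narrow peaks, A deserts had 0.612 ± 0.505 H3K27me3 replicate 1 peaks per Mb and A gaps of 100 to 300 kb had 2.01 ± 0.642 (SD, n = 13 chromosomes), lower in deserts on 13 of 13. On D the values were 1.37 ± 1.17 and 4.09 ± 1.88 (SD, n = 13), lower in deserts on 13 of 13. In ratio, pooled densities lay closer together within 10 kb of the border, and at 100 to 150 kb on A. Within 5 kb they were 9.65 in deserts and 10.9 in gaps of 100 to 300 kb on A, and 13.2 and 13.6 on D. At 5 to 10 kb they were 3.47 and 4.96 on A, and 7.89 and 7.36 on D, where deserts had the higher value from 9 peaks. At 100 to 150 kb they were 0.362 and 0.390 on A, the latter from 8 peaks, and 1.05 and 2.13 on D. The D values were no closer in ratio there than at 50 to 100 kb, where they were 1.40 and 2.93. The comparison and its range of 10 to 100 kb were chosen after the data were seen and carry no test.

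The H3K27me3 peaks in deserts did not differ detectably from others in median width. Among those off narrow peaks, the median width was 1003 bp in A deserts and 1027 bp elsewhere on A, and 968 against 1117 bp on D. Over chromosomes with at least 5 such peaks the difference was 11.4 ± 365 bp on A (SD, n = 13, adjusted p = 0.913) and 164.5 ± 799 bp on D (SD, n = 8, adjusted p = 0.625) by the exact sign-flip permutation test, which cannot go below p = 0.00781 with 8 chromosomes. Peaks of at least 5 kb made up 1.79% in A deserts (4 peaks) and 4.80% elsewhere on A. On D the order was the reverse, at 7.32% (6 peaks) and 6.10%. The other broad list gave 1.15% and 3.87% on A, and 7.22% and 4.95% on D. These shares were not tested.

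A difference in how often they were found again in the other broad list did not pass the test. On A, 180 of 223 desert peaks off narrow peaks were found again (80.7%, exact Clopper-Pearson 95% interval 74.9 to 85.7, counting error only), against 89.0% elsewhere. On D it was 66 of 82 (80.5%, 70.3 to 88.4) against 89.4%. Over chromosomes the difference was -7.27 ± 12.5 percentage points on A (SD, n = 13, lower on 9 of 13, adjusted p = 0.0858) and -8.47 ± 13.3 on D (SD, n = 8, lower on 6 of 8, adjusted p = 0.146), both by the exact permutation test. The A result depended on the setting: it passed at a limit of 500 kb (-13.3, adjusted p = 0.0293), without H3K4me3 replicate 1 (-4.25, 0.0134), with narrow peaks of at least 500 bp (-7.27, 0.0150) and with narrow peaks in both lists (-4.23, 0.0151), each an adjusted p of the exact permutation test. Without pair 4 it passed as well (-9.45, adjusted p = 0.0126, exact permutation test). A04 held 10 such desert peaks, and 100% of them were found again, against 81.0% elsewhere on A04. With the other broad list as the measure the A difference turned to 4.22 points (exact permutation test, adjusted p = 0.140).

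Removing deserts took away most of the difference in narrow peak density between the subgenomes. Over whole spans the merged narrow lists had 30.6 peaks per Mb on A and 48.5 on D, a log2 ratio of D over A of 0.67 ± 0.12 (mean over 13 pairs, SD). Outside deserts they had 44.8 on A and 51.7 on D, a log2 ratio of 0.22 ± 0.07 (SD, n = 13), above 0 in 13 of 13 pairs. H3K4me3 replicate 1 alone gave 0.23 outside these deserts, and the list labelled H3K27me3 replicate 2 gave 0.16. The narrow lists bounded the deserts, so this remainder is a description without a test.

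What remained depended on the length from which gaps were removed. The log2 ratio was 0.60 with gaps of at least 1000 kb removed, 0.39 from 500 kb, 0.10 from 200 kb and -0.06 ± 0.09 (SD, n = 13) from 100 kb. At 100 kb the densities were 72.6 peaks per Mb on A and 69.7 on D, and D was the higher in 3 of 13 pairs. By list, the ratio at 100 kb was -0.05 ± 0.09 (SD, n = 13) for H3K4me3 replicate 1, while the list labelled H3K27me3 replicate 2 gave -0.12 ± 0.10 (SD, n = 13), with D higher in 2 of 13 pairs for each.

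The D to A ratio of H3K27me3 also fell without deserts. Over whole spans H3K27me3 replicate 1 had 8.09 peaks per Mb on A and 14.7 on D, a log2 ratio of 0.85 ± 0.19 (SD, n = 13). Outside deserts it had 11.5 and 15.5, a log2 ratio of 0.43 ± 0.16 (SD, n = 13), higher on D in 13 of 13 pairs (exact sign-flip permutation p = 0.000244, adjusted p = 0.000610). The other broad list gave 0.44 ± 0.17 outside deserts. With gaps of at least 100 kb removed the ratio of replicate 1 was 0.18 ± 0.16, with D higher in 12 of 13 pairs. The difference between this ratio and that of the narrow peaks was not tested.

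**Figure D5:**
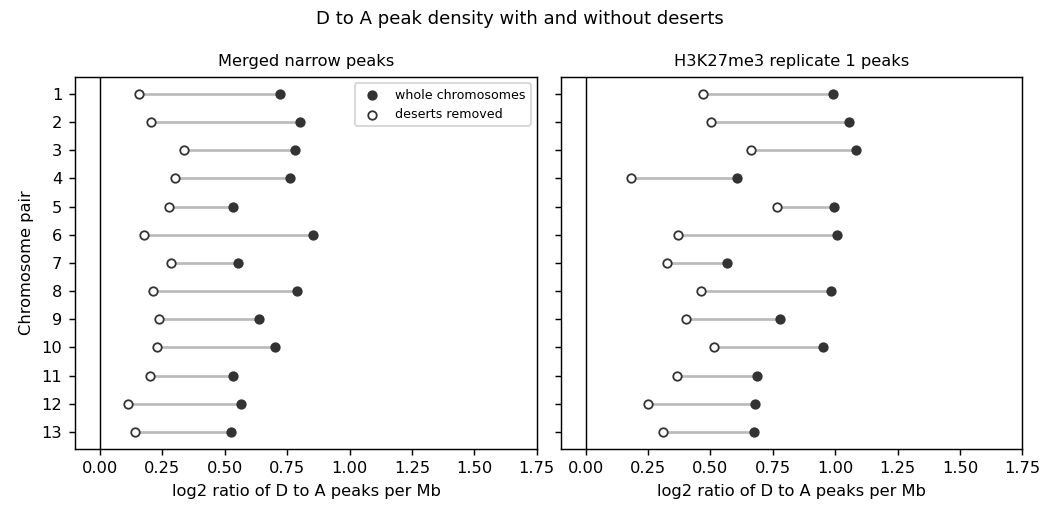
Log2 ratio of D over A peak density in each of the 13 chromosome pairs, over whole chromosomes (filled points) and with deserts removed (open points), for merged narrow peaks (left) and H3K27me3 replicate 1 (right). Every point lies above 0, and every open point lies left of its filled point, with means of 0.22 against 0.67 for narrow peaks and 0.43 against 0.85 for H3K27me3.

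Densities are per Mb of assembled span. The share of a desert in which reads could be placed was not measured, so a desert is a stretch without peaks in these lists and not a stretch shown to lack the mark. The genes within deserts are not named, since no annotation of that assembly was to hand.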

How the data were processed

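Leaves of TM-1 plants 20 days old gave 6 samples, grouped by their labels (2 each of H3K4me3, H3K27me3 and input). The authors trimmed reads with fastp, aligned them with Bowtie2 to a published TM-1 genome, removed duplicates (Picard) and reads of low mapping quality (samtools), and called peaks with MACS2, in broad mode for H3K27me3 and narrow mode for H3K4me3. By the methods of the study, peaks for its analyses came from the first replicate, and the second served to check repeatability. How the deposited replicate 2 lists were made is not given separately. Versions and the use of the inputs as control are not given in the sources used here. The 4 deposited lists hold the start and end of each peak in bp and no score, so depth and its precision could not be read from them.

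Peaks on scaffolds were left out. Overlap was counted from 1 bp, and H3K27me3 peaks were placed by midpoint. Tests were exact two-sided sign-flip permutation tests of the mean over 13 chromosomes or pairs (8192 sign patterns, smallest p 0.000244), adjusted over 10 tests by Benjamini-Hochberg, threshold 0.05. Libraries were not tested against each other. The members and lists were chosen with earlier results of these data known. Regions were named by rule: the 5 longest deserts of each subgenome, the longest without a broad peak, the one with most H3K27me3 replicate 1 peaks, the widest H3K27me3 peak inside a desert, the longest runs, the 3 gaps on either side of the limit, and the chromosomes of extreme desert share.

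Alternatives were limits of 200 and 500 kb, each narrow list alone, lists by label, narrow peaks of at least 500 bp, narrow peaks in both lists, the other broad list, broad peaks in both lists, covered bases, overlap of 1 bp, an outer zone of 100 kb, crossed pairs and omission of each pair. Those without H3K27me3 peaks on narrow peaks and without the D03 desert were added after the data were seen. Test code was tested on simulated data. Python 3.11.15, numpy 2.4.6, scipy 1.17.1 and matplotlib 3.10.9 were used.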

Additional observations from a re-analysis of the deposited data

How the results depend on the processing

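No paired analysis was possible because no test compares libraries, so that the replicate numbers of the libraries cannot enter as a block (the pairing of chromosomes is part of the tests themselves). The lower H3K27me3 density in deserts on A and D, the higher H3K27me3 density outside deserts on D, and the higher density in the outer 50 kb on A kept direction and call in each alternative run (adjusted p at most 0.00244). The run by label is no support here for values within deserts. Its deserts were bounded by the other broad list, so that few H3K27me3 peaks could lie inside them. A limit of 200 kb gave 1134 deserts on A, 333 on D (100.9 Mb), a log2 narrow density ratio of 0.10 and a D width difference of -87.6 bp. A limit of 500 kb gave 298 and 21 deserts (229.1 and 13.7 Mb), a log2 ratio of 0.39, a D minus A difference of 1.06 per Mb (adjusted p = 0.0991), a found-again difference on A of -13.3 points (adjusted p = 0.0293) and an outer minus interior difference on D of 2.81 (adjusted p = 0.0781), all p by the exact permutation test. Without H3K4me3 replicate 1, D had 288 deserts (128.7 Mb), the D minus A difference was 6.92 per Mb, the log2 ratio was 0.11, the A width difference 177.5 bp (called), the found-again difference on A -4.25 points (called) and the D outer minus interior difference 0.875 (not called). By label, the D minus A difference was 0.0646 and the D outer minus interior difference 0.714, neither called. Narrow peaks of at least 500 bp gave 209 D deserts (93.1 Mb), a log2 ratio of 0.12, a D width difference of -7.19 bp and a found-again difference on A of -7.27 points (called). Narrow peaks in both lists gave 298 D deserts (135.9 Mb), a log2 ratio of 0.10, a found-again difference on A of -4.23 points (called) and a D outer minus interior difference of 0.248 (not called). The other broad list turned the uncalled differences, to -94.2 bp (A width), -54.6 bp (D width), 4.22 points (A found again) and 0.0155 points (D found again). Placement by 1 bp overlap gave an A width difference of 612 bp (called). In that setting the desert side included peaks on the narrow border peaks and the other side held none on narrow peaks, so 2 choices changed and the value is not comparable with the main one. It was not run for the outer zone, which needs a midpoint. Without the D03 desert the D minus A difference was 0.781 (not called) and the D width difference -24.6 bp. The cause of these changes was not tested otherwise. Omission of each pair left 98 to 111 deserts (41.9 to 46.4 Mb) on D, 588 to 630 (326.6 to 351.3 Mb) on A, a log2 narrow ratio of 0.21 to 0.23, the D outer minus interior difference at 2.55 to 3.03, the D minus A difference at 0.772 to 1.11, the A width difference at -51.3 to 59.3 bp, the D width difference at -24.6 to 285 bp and the A found-again difference at -9.45 to -5.84 points. Of 195 such values 183 kept direction and call. The A found-again difference was called without pair 4 (-9.45 points, adjusted p = 0.0126, exact permutation test). Width and found-again differences on fewer than 2 chromosomes with 5 peaks gave no value.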
